A study of Saccharomyces cerevisiae with 13 samples.

Results

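The genes described here code for factors that assemble ribosomes in the yeast Saccharomyces cerevisiae. They are the genes whose symbol on the array platform is UTP, NOP, NOC, RRP, NSA, ENP or NUG followed by a digit. This rule found 61 of the 5449 S. cerevisiae genes measured: 18 UTP, 18 RRP, 17 NOP, 3 NOC, 2 ENP, 2 NSA and 1 NUG gene. Each was represented by a single probe set, so no choice between probe sets was needed. RNA came from glucose-limited, micro-aerobic chemostats fed with furfural, an aldehyde that forms when plant biomass is broken down and that slows yeast growth. TMB3400-FT30-3, called FT30-3 here, is a strain evolved to tolerate high furfural, and TMB3400 is the less resistant parent strain. FT30-3 was measured at 15 mM (n = 3 arrays), 25 mM (n = 2) and 36 mM (n = 3) furfural in the feed, and TMB3400 at 15 mM (n = 2) and 25 mM (n = 3). TMB3400 washed out at 36 mM, and furfural was present in every group, so there is no furfural-free culture to set these values against. Replicates are described as biological in the design text.

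Ribosomes are built in the nucleolus, where RNA polymerase I makes a long precursor of the ribosomal RNAs. The UTP-A, UTP-B and UTP-C subcomplexes and the Mpp10 complex load onto this precursor in a large particle called the small subunit processome, and small nucleolar RNPs of the box C/D and H/ACA classes modify it. Further NOP, NOC, RRP and NSA proteins fold, cut and export the precursors of the small and the large subunit, and the RNA exosome trims and degrades the by-products. In yeast, transcription of this group of genes is known to follow growth rate and to fall under many stresses.

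By role, the 61 genes were 6 of UTP-A, 4 of UTP-B, 3 of UTP-C, 10 other factors of the processome, 6 that mature the small subunit, 4 of box C/D particles, 1 of H/ACA particles, 17 nucleolar factors of the large subunit, 3 later factors of the large subunit, and 7 of the exosome. Their intensities, as deposited, lay between 225.7 and 9636. All 61 were above the background of the array, the 95th percentile of probe sets for the unrelated yeast Schizosaccharomyces pombe (31.2 to 39), on all 13 arrays. Across arrays, the median over S. cerevisiae probe sets was 1412.1 to 1663.1. All log2 levels below were centred, that is, each array's median was set to a common value, so a change is relative to the median of all genes. Equal amounts of labelled RNA are compared on an array, so fewer copies of a transcript per cell and more of other transcripts cannot be told apart. Levels of different genes are not compared with each other, since probe sets differ in brightness.

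**Figure D1:**
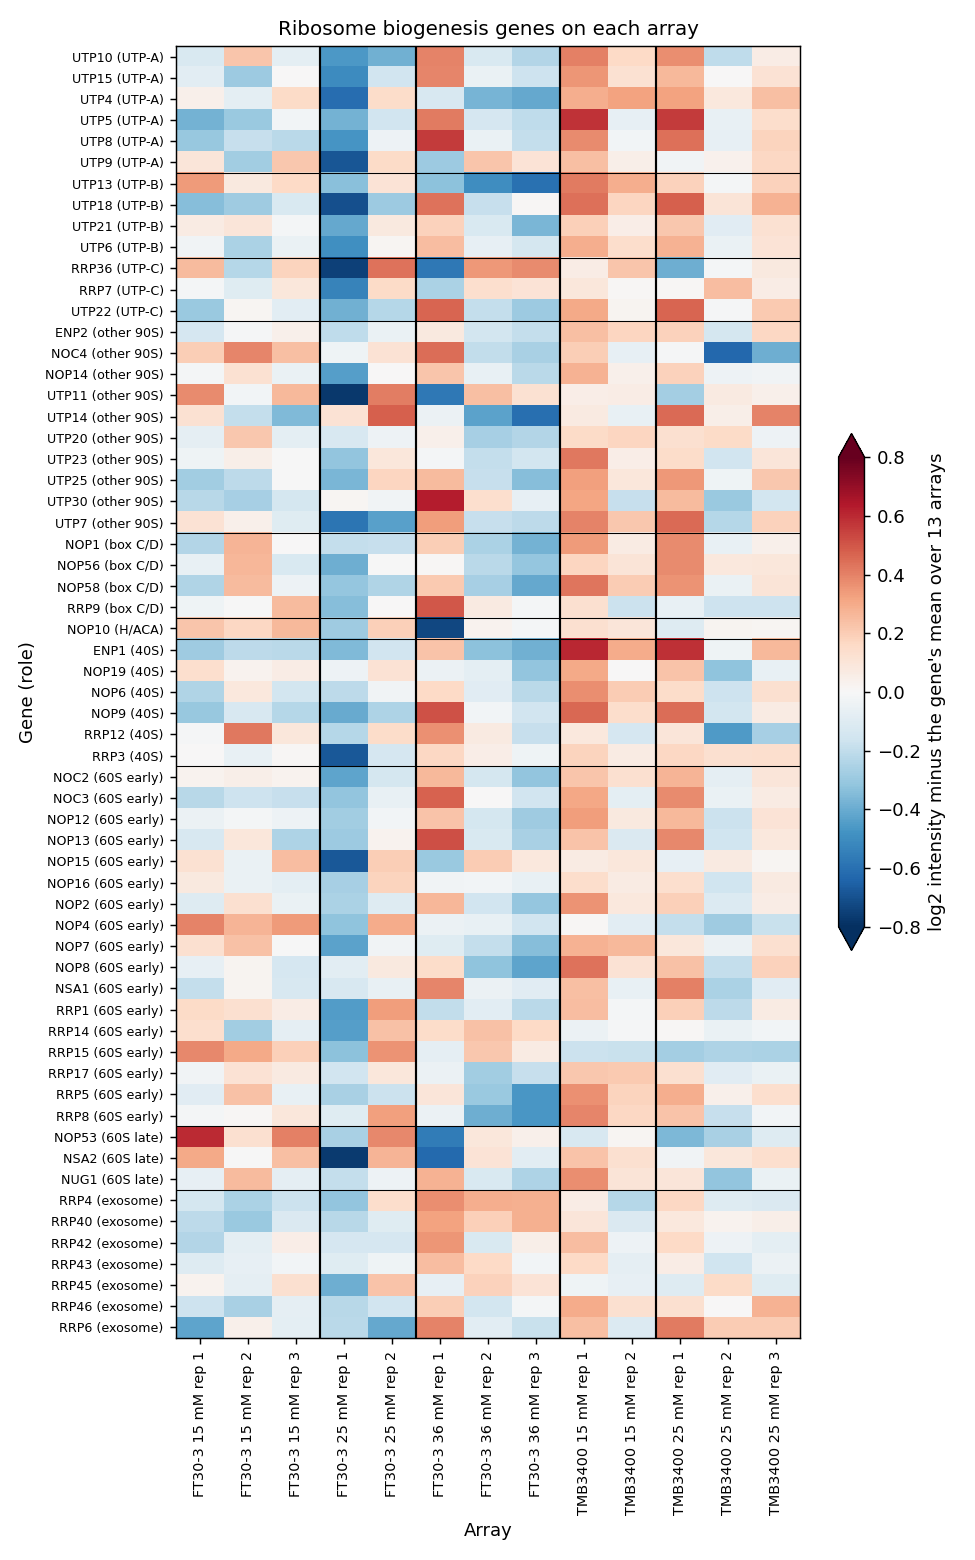
Heat map of the 61 genes (rows, by role) on the 13 arrays (columns, by group), coloured by centred log2 intensity minus the gene's own mean over the arrays, red above and blue below it. Most genes are blue on FT30-3 25 mM replicate 1 and red on TMB3400 15 mM replicate 1, while NOP10, NOP53, RRP36 and UTP11 are low on FT30-3 36 mM replicate 1, where most others are high.

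Replicate arrays of one group differed more for these genes than for most others. The median within-group SD was 0.21 log2 units for the 61 genes and 0.161 for all genes. It ran from 0.0864 for RRP40, a cap subunit of the exosome, to 0.44 for RRP36, a partner of the UTP-C subcomplex. The spread was widest in FT30-3 at 36 mM, with a median SD of 0.27 against 0.19 for all genes there, and at 25 mM, with 0.25 against 0.13. In FT30-3 at 15 mM it was 0.11 for both the 61 genes and all genes.

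Single arrays carried much of this spread. On FT30-3 25 mM replicate 1, only 2 of the 61 genes were above their own mean over the 13 arrays, and the median deviation was -0.32. On replicate 2 of that group, 31 of 61 were above their mean, with a median of 0.00. The 3 arrays of FT30-3 at 36 mM had medians of 0.20, -0.09 and -0.19, with 40, 19 and 13 genes above their mean. In FT30-3 at 15 mM the medians were -0.04, 0.01 and -0.02, so those arrays lay close together. TMB3400 had 0.24 and 0.06 at 15 mM, and 0.19, -0.06 and 0.07 at 25 mM. TMB3400 15 mM replicate 1 had 57 of 61 genes above their mean, the most of any array.

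**Figure D2:**
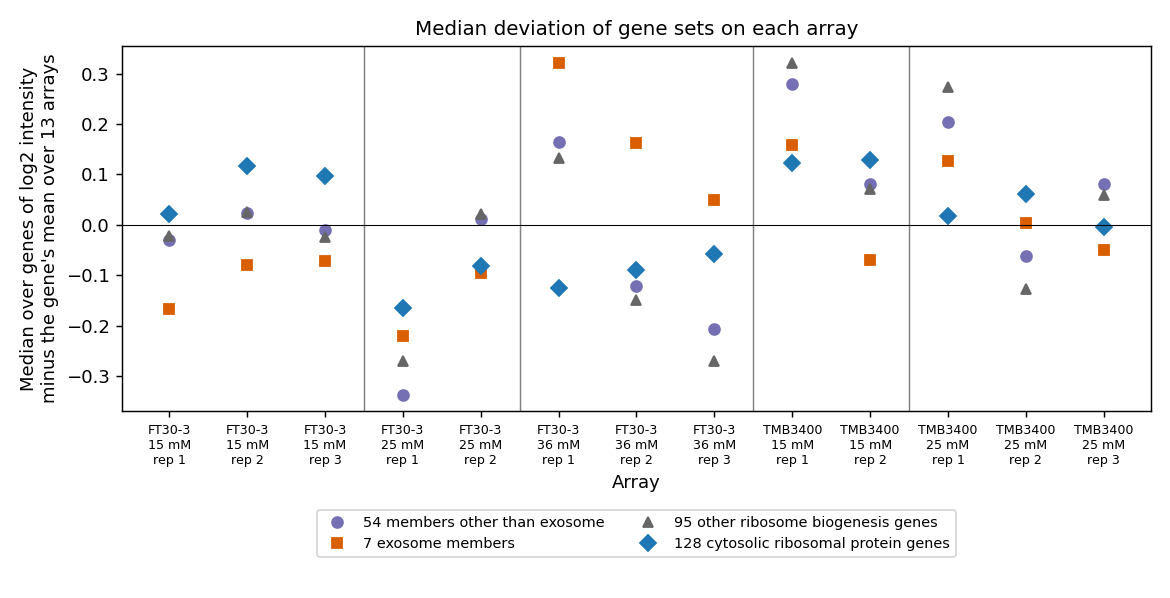
Median over each gene set of centred log2 intensity minus the gene's mean over 13 arrays (y axis), for each array (x axis, by group). The 54 members outside the exosome and the 95 other ribosome biogenesis genes lie low on FT30-3 25 mM replicate 1 and spread widely within FT30-3 at 36 mM, while the 7 exosome members lie above 0 on all 3 arrays of that group and the 128 ribosomal protein genes lie below 0 there.

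Within groups, most of the 61 genes moved together. After each group's mean was taken out, the median correlation between 2 genes over the 13 arrays was 0.623, and 81.5% of the 1830 pairs were above 0. The pairs share their arrays, so this describes these arrays. No value for pairs of all genes is set beside it, so it is not shown to be particular to these genes. UTP8, NOP12 and NOC3 followed the others most closely, with median correlations of 0.84, 0.83 and 0.81. UTP8 belongs to UTP-A, and NOP12 and NOC3 act in the large subunit pathway. The lowest median correlations were those of NOP10 (-0.35), NOP53 (-0.25), RRP36 (-0.19), UTP11 (-0.09) and RRP7 (-0.06). NOP10 is a small subunit of H/ACA particles, NOP53 a late factor of the large subunit, UTP11 a processome factor, and RRP7 a UTP-C protein. NOP10, for example, had log2 levels of 12.26, 13.02 and 12.97 at 36 mM in FT30-3. It was low on replicate 1, whereas UTP8 was high there, at 10.07 against 9.46 and 9.32 on the other arrays of that group.

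Coding length moved with these arrays. All 61 genes had a length, between 177 bases (NOP10) and 7482 (UTP20). On FT30-3 36 mM replicate 1, longer genes of the 61 deviated upwards from the group mean, with a Spearman rho of 0.52 (0.35 over all 5449 genes). On replicates 2 and 3 the rho was -0.33 and -0.58 (-0.26 and -0.36 over all genes). The 42 members of 1000 bases or more deviated by a median of 0.31 on replicate 1 of that group, and the 19 shorter ones by 0.01. Over the arrays of the other groups, rho lay between -0.32 and 0.36 for the 61 genes. The part of length in the spread was not tested as such. Each comparison was also fitted after the trend with length was removed from every array, an alternative chosen after seeing the data. Calls that it changed among the genes named are given below.

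At 15 mM furfural, the levels of most of the 61 genes were a little lower in FT30-3 than in TMB3400, but none passed the test. The log2 difference, FT30-3 minus TMB3400, was below 0 for 50 of 61 genes, against 54.4% of all genes, with a median of -0.16 against -0.02 for all genes. No gene of the 61 was called by limma at an adjusted p under 0.05, the threshold used throughout, while 2.2% of all genes were (1.95% higher and 0.257% lower). At an unadjusted p under 0.05 there were 7 of 61, against 12.2% of all genes. In 22 genes all FT30-3 arrays lay below both TMB3400 arrays, a pattern that 21.4% of all genes showed, and in 5 they lay above (16.7% of all genes). The median ran from -0.26 without TMB3400 replicate 2 to -0.08 without TMB3400 replicate 1, so the value moved most with the 2 TMB3400 arrays. Without FT30-3 36 mM replicate 1, ENP1 was called lower (adjusted p = 0.0389), and without either FT30-3 25 mM array RRP15 was called higher (0.0461).

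The 4 genes with the smallest p at 15 mM were ENP1, RRP46, UTP18 and RRP15. ENP1, which helps to mature and export the small subunit, had 9.47, 9.54 and 9.53 in FT30-3 and 10.35 and 10.05 in TMB3400. The groups did not overlap, and the difference of -0.69 ± 0.21 (SE) had an adjusted p of 0.134 in limma. RRP46, an exosome ring subunit, had 10.31, 10.21 and 10.40 in FT30-3 against 10.77 and 10.60 in TMB3400, a difference of -0.38 ± 0.12 (adjusted p = 0.174). UTP18, a WD-repeat protein of UTP-B, had 9.11, 9.17 and 9.33 in FT30-3 and 9.90 and 9.62 in TMB3400, a difference of -0.55 ± 0.19 (adjusted p = 0.213). RRP15, a nucleolar factor of the large subunit, went the other way. It had 11.81, 11.72 and 11.61 in FT30-3 and 11.24 on both TMB3400 arrays, a difference of 0.47 ± 0.17 (adjusted p = 0.223).

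RRP15 is 1 of 6 genes of the 61 that lie on chromosome XVI, with NOC4, NOP4, NOP53, RRP9 and RRP12. At 15 mM all 6 had differences above 0, from 0.10 to 0.47 with a median of 0.29. Of the 424 chromosome XVI genes measured, 414 were above 0, with a median of 0.43. The median of the 6 genes was thus below that of the chromosome. Of the 55 on other chromosomes, 50 were below 0, with a median of -0.19. Of all genes off chromosome XVI, 2953 of 5025 were below 0, with a median of -0.04. At 25 mM, 5 of the 6 were above 0, with a median of 0.24. Of the 424 chromosome XVI genes, 391 were above 0, with a median of 0.41 (42.8% of all genes were above 0). Of the 55 others, 52 were below 0, with a median of -0.25, against 3085 of 5025 and -0.06 for all genes off chromosome XVI. The median of the 55 was -0.07 with 34 below 0 without FT30-3 25 mM replicate 1, and -0.45 without replicate 2. The part of the chromosome in these differences was not tested.

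**Figure D3:**
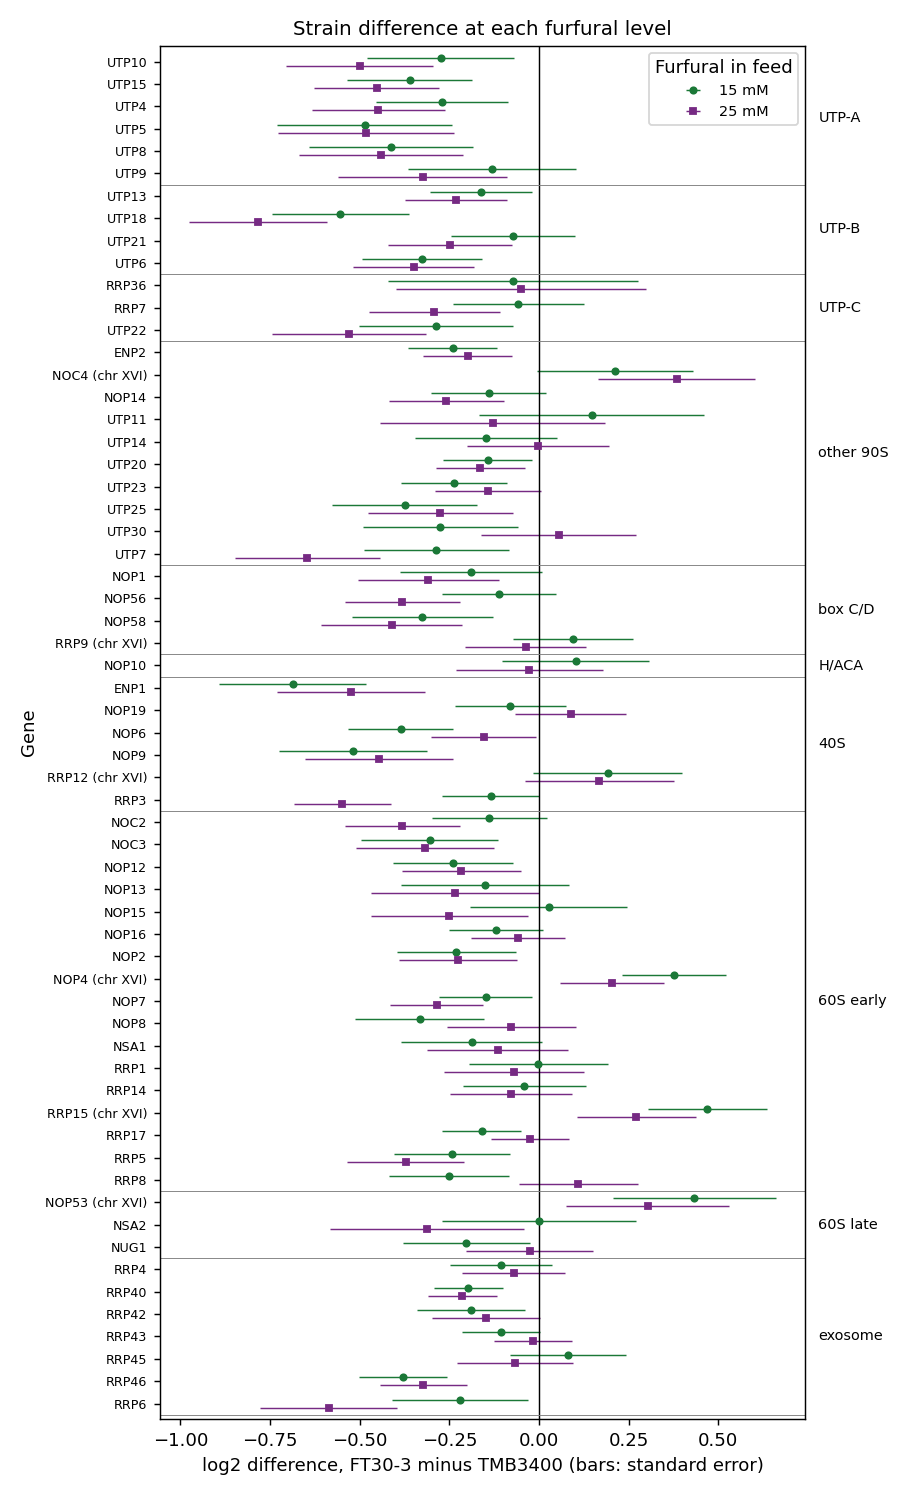
Log2 difference of FT30-3 minus TMB3400 (x axis, bars are standard errors from limma) for each of the 61 genes (y axis, by role), at 15 mM (circles) and 25 mM (squares) furfural. Most points lie left of 0 at both levels, and those of the 6 chromosome XVI genes lie right of 0, except RRP9 at 25 mM (-0.04).

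At 25 mM, UTP18 and RRP3 fell in FT30-3 relative to TMB3400, and none of the 61 genes rose. These 2 called genes compare with 6.61% of all genes called in either direction, 4.22% being higher and 2.39% lower. UTP18 had 8.75 and 9.17 in FT30-3 and 9.94, 9.56 and 9.73 in TMB3400. The groups did not overlap, and the level was 1.72-fold lower in FT30-3 (log2 difference -0.78 ± 0.19, 95% interval -1.21 to -0.36, adjusted p = 0.0338 in limma). RRP3, a DEAD-box RNA helicase needed for small subunit rRNA processing, had 9.73 and 10.28 in FT30-3 and 10.58, 10.54 and 10.54 in TMB3400. It was 1.46-fold lower (-0.55 ± 0.13, interval -0.84 to -0.25, adjusted p = 0.0341), and FT30-3 replicate 1 was the lower of the 2 arrays for both genes. Without that array the differences were -0.58 for UTP18 (adjusted p = 0.283) and -0.28 for RRP3 (0.277). Both calls were also lost without FT30-3 15 mM replicate 2, TMB3400 25 mM replicate 1 or TMB3400 25 mM replicate 3, and in all RRP3 lost its call in 12 and UTP18 in 6 of the 23 alternatives run.

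The next genes at 25 mM were UTP7 and RRP6. UTP7, a processome scaffold protein, had 9.40 and 9.56 in FT30-3 against 10.44, 9.76 and 10.17 in TMB3400 (-0.65 ± 0.20, adjusted p = 0.0928 in limma). RRP6, the nuclease of the nuclear exosome, had 10.24 and 10.04 in FT30-3 against 10.87, 10.66 and 10.65 in TMB3400 (-0.59 ± 0.19, adjusted p = 0.103). In both, every FT30-3 array lay below every TMB3400 array. Without FT30-3 36 mM replicate 1 both were called lower (adjusted p = 0.0325 for each in limma). UTP7 was also called without TMB3400 25 mM replicate 2 (0.0345). The highest difference of the 61 was that of NOC4, on chromosome XVI, a partner of NOP14 in the processome. Its levels were 10.67 and 10.82 in FT30-3 and 10.69, 10.07 and 10.31 in TMB3400 (0.38, adjusted p = 0.381), and the groups overlapped.

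In all, 53 of the 61 genes were below 0 at 25 mM, against 57.2% of all genes, with a median of -0.23 against -0.04. The 6 UTP-A genes were all below 0, from -0.50 to -0.32 with a median of -0.45, and none was called. UTP-A is the subcomplex that binds the precursor rRNA first. Their median was -0.25 without FT30-3 25 mM replicate 1 and -0.64 without replicate 2. NAN1, the seventh UTP-A gene, which the naming rule of the 61 does not take and which lies on chromosome XVI, was above 0 (0.45 ± 0.19, adjusted p = 0.21 in limma). The 4 UTP-B and the 4 box C/D genes were also all below 0, with medians of -0.30 and -0.34, as were the 7 exosome genes (-0.15). The 17 nucleolar factors of the large subunit had a median of -0.11, with 14 below 0. In 19 genes the groups did not overlap with FT30-3 lower (21.6% of all genes), and in 0 with FT30-3 higher (15.5%). At an unadjusted p under 0.05 there were 15 of 61, against 19.4% of all genes. Without FT30-3 25 mM replicate 1 the median of the 61 genes was -0.04 with 34 below 0, and without replicate 2 it was -0.42 with 58 below 0. The size of the difference at 25 mM thus depended on which FT30-3 array was kept.

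Between 25 and 15 mM, no gene of the 61 passed the test in either strain. The comparisons at 15 and 25 mM between strains and these comparisons between doses share arrays, so they are not independent of each other. In TMB3400, 0 of 61 genes were called in limma (1.63% of all genes) and 0 had an unadjusted p under 0.05 (9.47% of all genes). The median was -0.10 with 48 of 61 below 0, against 52.1% of all genes. It was -0.02 without TMB3400 15 mM replicate 1 and -0.19 without replicate 2, with 35 to 55 genes below 0 over the left-out arrays. The smallest p was that of RRP17, a nuclease of the large subunit pathway, with 9.69, 9.47 and 9.51 at 25 mM against 9.78 and 9.77 at 15 mM (-0.22 ± 0.11, adjusted p = 0.585). The most negative change was that of NOC4, at 10.69, 10.07 and 10.31 against 10.90 and 10.63 (-0.41 ± 0.22, adjusted p = 0.632). NUG1, a GTPase of large subunit export, changed by -0.33 ± 0.18 (0.635), and NOP6, a small subunit factor, by -0.25 ± 0.15 (0.676). The highest was UTP14, which activates a processome helicase, at 10.78, 10.37 and 10.73 against 10.40 and 10.27 (0.29 ± 0.20, adjusted p = 0.734). The groups overlapped in NOC4 and UTP14, and did not in RRP17, NUG1 and NOP6. Over the 61 genes, the groups did not overlap in 8 with 25 mM lower (15.6% of all genes) and in 0 with 25 mM higher (14%).

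In FT30-3, 0 of 61 genes were called between 25 and 15 mM (2.15% of all genes, 1.23% higher and 0.918% lower), and 5 had an unadjusted p under 0.05 (11.6% of all genes). The median was -0.17 with 52 below 0, against 56.5% of all genes. RRP3 had 9.73 and 10.28 at 25 mM against 10.41, 10.35 and 10.42 at 15 mM (-0.39 ± 0.13, adjusted p = 0.261 in limma). NOP7, which with its partners processes the large subunit precursor, had 10.27 and 10.68 against 10.83, 10.94 and 10.70 (-0.35 ± 0.13, adjusted p = 0.302). UTP7 had 9.40 and 9.56 against 10.11, 10.03 and 9.89 (-0.53 ± 0.20, 0.318), the most negative change. NOP4 changed by -0.35 ± 0.14 (0.371). UTP14 was again the highest, at 10.44 and 10.81 against 10.45, 10.14 and 9.97 (0.44 ± 0.20, 0.422). The groups did not overlap in 8 genes with 25 mM lower (16.2% of all genes) and in 1 with 25 mM higher (12.3%). Without FT30-3 25 mM replicate 2, 3 genes (RRP3, NOP4 and RRP15) were called lower and the median was -0.30. Without replicate 1 none was called and the median was 0.03, so the direction of the median depended on which array was left out. With the values as deposited, uncentred, the median was -0.01 in FT30-3 and 0.04 in TMB3400, since the median of all genes was 0.13 in both.

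The change from 15 to 25 mM was also compared between the strains. No gene of the 61 was called in this interaction (0.679% of all genes were), and none had an unadjusted p under 0.05 (3.56% of all genes). The smallest p was that of RRP3, at -0.41 ± 0.19 (adjusted p = 1 in limma). The largest value in the other direction was that of RRP8, an rRNA methyltransferase, at 0.36 ± 0.24. A p that misses the threshold does not show that the strains responded alike.

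At 36 mM, which only FT30-3 was grown at, the levels of 4 of the 61 genes differed from those at 15 mM. RRP40 and RRP4 rose, and UTP13 and NOP4 fell. The 4 genes are 6.56% of the 61, against 22.3% of all genes called, of which 11% were higher and 11.2% lower. At an unadjusted p under 0.05 there were 10 of 61, against 37.8% of all genes.

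RRP40 and RRP4 code for cap subunits of the exosome, which hold RNA at the entrance of its channel. RRP40 had 10.98, 10.85 and 10.95 at 36 mM and 10.45, 10.36 and 10.55 at 15 mM. The groups did not overlap, and the level was 1.39-fold higher (0.47 ± 0.09, interval 0.28 to 0.66, adjusted p = 0.00323 in limma). RRP4 had 10.81, 10.73 and 10.72 at 36 mM and 10.30, 10.19 and 10.26 at 15 mM, 1.42-fold higher (0.51 ± 0.13, interval 0.22 to 0.79, adjusted p = 0.0171). RRP40 was called under all 23 other settings and left-out arrays, and RRP4 under all but that without FT30-3 15 mM replicate 2 (adjusted p = 0.0603).

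UTP13, a WD-repeat protein of UTP-B, had 10.83, 10.65 and 10.55 at 36 mM against 11.49, 11.23 and 11.31 at 15 mM. It was 1.59-fold lower with no overlap (-0.67 ± 0.13, interval -0.95 to -0.39, adjusted p = 0.00391 in limma), and was called under all 23 alternatives. NOP4, an RNA-binding protein of the large subunit pathway that lies on chromosome XVI, had 11.67, 11.66 and 11.56 at 36 mM against 12.12, 11.99 and 12.06 at 15 mM. It was 1.34-fold lower (-0.43 ± 0.13, adjusted p = 0.0378). Its call was lost in 12 of the 23 alternatives, with adjusted p up to 0.215 for the values as deposited. No other UTP-B gene of the 61 passed the test. UTP21 changed by -0.15 ± 0.16, UTP6 by 0.12 ± 0.15 and UTP18 by 0.33 ± 0.17 (adjusted p = 0.504, 0.573 and 0.179 in limma), and the median of the 4 with UTP13 was -0.01. DIP2, a UTP-B gene outside the 61, changed by -0.38 ± 0.14 (adjusted p = 0.0756).

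**Figure D4:**
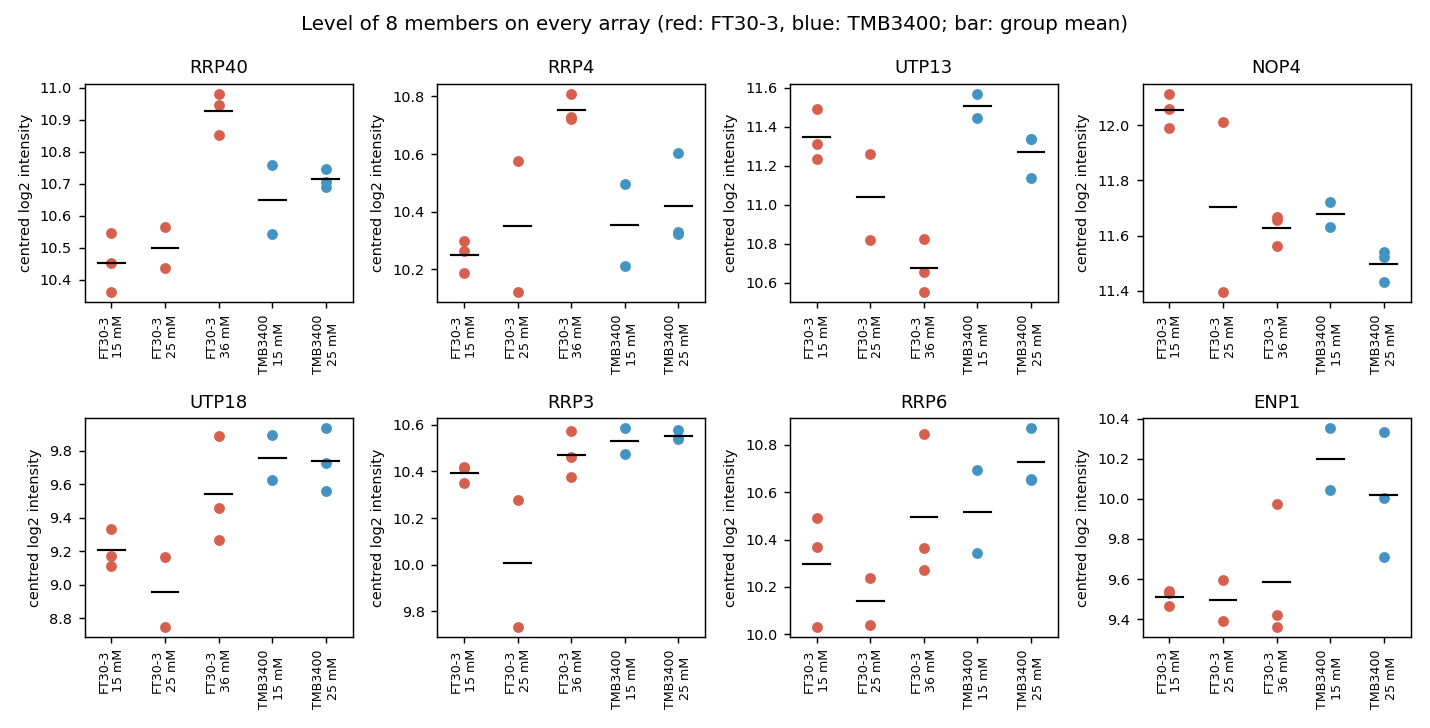
Centred log2 intensity (y axis) of 8 of the genes on every array, by group (x axis), with FT30-3 in red, TMB3400 in blue and a bar at each group mean. RRP40 and RRP4 are high on all 3 FT30-3 arrays at 36 mM, UTP13 is low there, and UTP18 and RRP3 are lowest on FT30-3 25 mM replicate 1.

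The next genes by p between 36 and 15 mM did not pass the test. NOP7 had 10.60, 10.51 and 10.36 at 36 mM against 10.83, 10.94 and 10.70 at 15 mM (-0.33 ± 0.12, adjusted p = 0.0607 in limma). It was called lower in 4 of the 23 alternatives. Among them were the fits without FT30-3 36 mM replicate 1 (0.0458) and with the trend with coding length removed (0.0335). NOP53 had 11.23, 11.88 and 11.83 against 12.38, 11.91 and 12.19 (-0.52 ± 0.20, 0.0882). NOP10 had 12.26, 13.02 and 12.97 against 13.21, 13.15 and 13.25 (-0.45 ± 0.18, 0.096). In NOP7, NOP53 and NOP10 all arrays at 36 mM lay below those at 15 mM, and in NOP53 and NOP10 replicate 1 was the lowest. UTP30, a processome protein, had 10.15, 9.66 and 9.45 against 9.30, 9.25 and 9.38 (0.44 ± 0.19, 0.118), and there replicate 1 was the highest. With the values as deposited UTP30 was called higher (0.64, adjusted p = 0.031 in limma). The groups did not overlap in 10 genes with 36 mM lower (22.3% of all genes) and in 5 with 36 mM higher (19.4%).

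Across the 61 genes, the median change between 36 and 15 mM was -0.03, the same as for all genes, with 35 below 0 (53.6% of all genes). It was -0.14 without FT30-3 36 mM replicate 1 and 0.03 without replicate 3. With the values as deposited the median was 0.16 with 44 genes above 0, and 8 were called, 7 higher and 1 lower. The deposited values moved by a median of 0.17 for all genes, so the direction of the 61 as a group depended on the centring.

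The exosome genes were all on one side. All 7 (RRP4, RRP6, RRP40, RRP42, RRP43, RRP45 and RRP46) had changes above 0 between 36 and 15 mM, from 0.05 to 0.51 with a median of 0.19, and 2 of them were called higher. Of all genes, 46.4% were above 0 and 11% were called higher. With the values as deposited, 4 of the 7 were called higher. The deposited values of all genes moved upwards too, and the shares above are those after centring. The median of the other 54 genes was -0.06, with none called higher and 2 lower. With 1 array left out in turn, the exosome median was 0.12 to 0.26 with 6 or 7 of 7 above 0. With the trend with coding length removed it was 0.20, with 7 of 7 above 0 and 2 called. The 10 other exosome and cofactor genes measured had a median of 0.17, with 7 above 0. One of these was called, AIR2, which codes for an RNA-binding subunit of the TRAMP complex that feeds the exosome (0.38 ± 0.09, adjusted p = 0.0112 in limma).

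**Figure D5:**
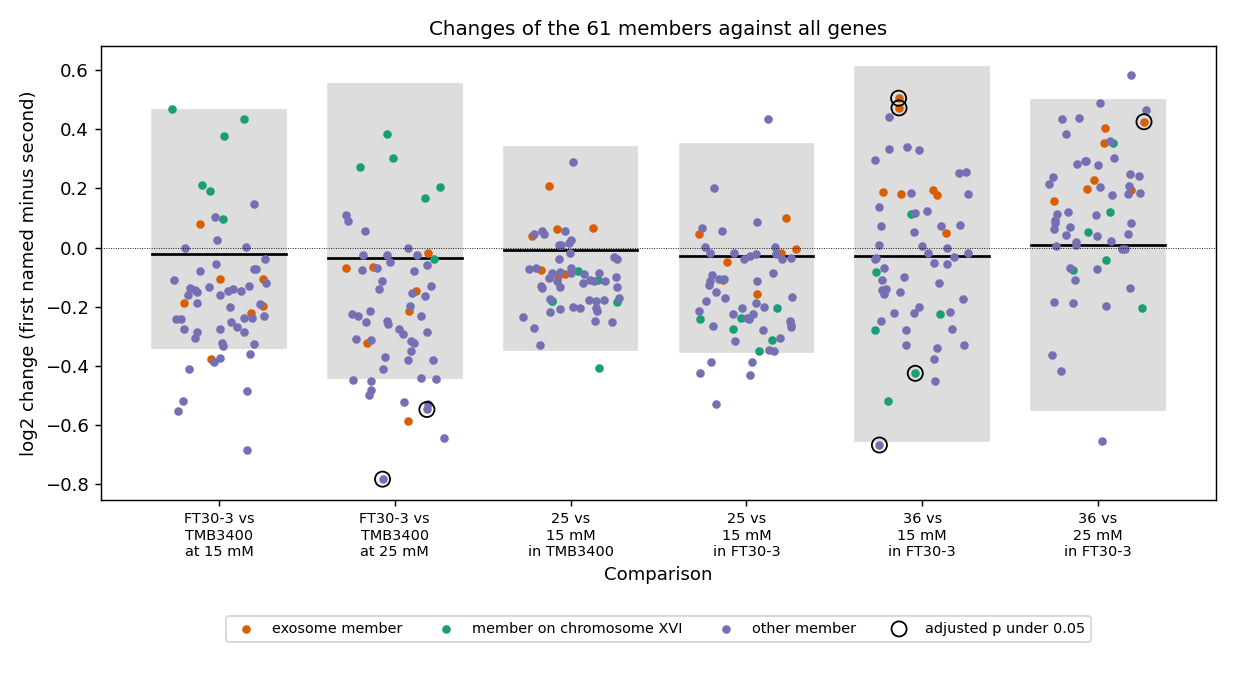
Log2 change (y axis, first named group minus second) of each of the 61 genes in 6 comparisons (x axis), with exosome genes orange, chromosome XVI genes green and the others purple. Grey boxes span the 5th to 95th percentile of all genes and the black line is their median. Open rings mark adjusted p under 0.05, on 2 genes for the strains at 25 mM, on 4 for 36 against 15 mM and on 1 for 36 against 25 mM.

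Between 36 and 25 mM in FT30-3, RRP40 rose and no other gene of the 61 was called, against 7.12% of all genes called, 3.4% higher and 3.73% lower. This comparison shares its 36 mM arrays with the one above. RRP40 had 10.98, 10.85 and 10.95 at 36 mM and 10.44 and 10.57 at 25 mM, 1.34-fold higher (0.43 ± 0.10, adjusted p = 0.0257 in limma). RRP3 had 10.57, 10.46 and 10.38 against 9.73 and 10.28 (0.47 ± 0.13, 0.063). UTP14 had 10.28, 9.90 and 9.73 against 10.44 and 10.81 (-0.66 ± 0.20, 0.0726), the most negative change. UTP18 had 9.89, 9.27 and 9.46 against 8.75 and 9.17 (0.58 ± 0.19, 0.0968), the highest. In all 4 genes the groups did not overlap, as in 11 of the 61 with 36 mM higher (18.2% of all genes) and 2 with 36 mM lower (15.9%). The median of the 61 was 0.12 with 46 above 0, against 51.5% of all genes, and it was 0.28 without FT30-3 25 mM replicate 2 and -0.05 without replicate 1. The call of RRP40 was lost without either FT30-3 25 mM array or without FT30-3 36 mM replicate 3. With the trend with coding length removed, UTP14 was called lower as well (adjusted p = 0.041 in limma), and so it was without FT30-3 36 mM replicate 1 (0.0288).

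The other genes of the pathway were read from lists of the same roles. The 95 other ribosome biogenesis genes had a median of -0.20 between the strains at 15 mM, with 82 below 0 (54.4% of all genes) and none called (2.2%). At 25 mM it was -0.17, with 77 below 0 (57.2% of all genes), 1 called higher (4.22%) and none lower (2.39%). Without TMB3400 15 mM replicate 1 the median at 15 mM was -0.08, and without replicate 2 it was -0.32. At 25 mM it was -0.03 without FT30-3 25 mM replicate 1 and -0.32 without replicate 2. The gene called was SSF2, a large subunit factor, whose near-identical copy SSF1 may share its signal. It had 10.66 and 10.50 in FT30-3 at 25 mM against 9.48, 9.22 and 9.60 in TMB3400 (1.15 ± 0.15, adjusted p = 0.000983 in limma). The interaction of strain and dose was called for SSF2 as well (1.36 ± 0.21, adjusted p = 0.00992), but not without FT30-3 25 mM replicate 1 or TMB3400 15 mM replicate 2. Between 36 and 15 mM, 3 of the 95 rose and 3 fell, against 11% of all genes called higher and 11.2% lower, with a median of -0.06. The median was -0.19 without FT30-3 36 mM replicate 1 and 0.02 without replicate 3. With the values as deposited, which moved upwards for all genes too, 10 of the 95 were called higher and none lower, with a median of 0.14. The calls of the falls named below thus depended on the centring. Their direction did not, at -0.52 for MAK16, -0.34 for SPB1 and -0.23 for DIM1 as deposited. EBP2, a large subunit factor, rose (0.76 ± 0.14, adjusted p = 0.00315), as did SPB4, a DEAD-box helicase (0.57 ± 0.14, 0.0148, but 0.0656 without FT30-3 15 mM replicate 1), and RIO2, an ATPase of the late small subunit (0.50 ± 0.11, 0.01). MAK16, a large subunit factor, fell (-0.72 ± 0.20, 0.0255), and DIM1, the small subunit rRNA dimethylase, whose gene is on chromosome XVI, fell too (-0.42 ± 0.12, 0.0262). The third that fell was SPB1, an rRNA methyltransferase of the large subunit (-0.54 ± 0.15, 0.0294), named here because it completes the count. MAK16 and DIM1 each lost the call in 6 of the 23 alternatives and SPB1 in 5, the values as deposited among them. In TMB3400, SSF2 and MAK16 fell between 25 and 15 mM (-1.48 ± 0.15, 0.000233, and -1.28 ± 0.22, 0.0126). They were the only 2 of the 95 called in that comparison, against 1.63% of all genes called, 0.826% being lower. MAK16 lost this call with only the groups compared and without TMB3400 15 mM replicate 1 or 2 or TMB3400 25 mM replicate 2.

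MTR4, which codes for the RNA helicase that delivers rRNA precursors to the exosome, was low on both FT30-3 arrays at 25 mM. It had 9.93 and 10.16 there, against 11.30 to 11.72 on the other 11 arrays. It fell at 25 mM in FT30-3 relative to TMB3400 (-1.47 ± 0.11, adjusted p = 1.67e-05 in limma) and relative to 15 mM in FT30-3 (-1.57 ± 0.11, 1.9e-05). The interaction was -1.40 ± 0.16 (adjusted p = 0.00115). Of the 10 other exosome and cofactor genes, AIR1, a relative of AIR2, fell as well between the strains at 25 mM (-0.54 ± 0.14, adjusted p = 0.045), a call lost in 12 of the 23 alternatives, the values as deposited among them (adjusted p = 0.0734). None of the 7 exosome genes among the 61 was called in these comparisons. Of all genes, 6.61% were called between the strains at 25 mM, 2.15% between 25 and 15 mM in FT30-3 and 0.679% in the interaction. All 7 were below 0 between the strains at 25 mM (57.2% of all genes), 3 of them at an unadjusted p under 0.05 (19.4%). With 1 array left out in turn, 4 to 7 of the 7 were below 0, and their median ran from -0.30 to -0.11. RRP6 had 10.24 and 10.04 on the FT30-3 25 mM arrays, below every TMB3400 array at 25 mM, and RRP40 had 10.44 and 10.57.

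Genes of the machinery that transcribes rRNA were measured too. Of 14 RNA polymerase I genes, RRN3, an initiation factor, and RPA12, a subunit, rose between 36 and 15 mM (0.73 ± 0.12, adjusted p = 0.00186, and 0.50 ± 0.15, 0.0315, in limma), and none fell. RPA12 lost this call with only the groups compared and without FT30-3 36 mM replicate 1 or 3 or FT30-3 15 mM replicate 1 or 2. Of 10 RNA polymerase III subunits, RPC34 rose (0.56 ± 0.09, 0.00196). These 2 of 14 and 1 of 10 genes compare with 11% of all genes called higher. RPC34 was also lower in FT30-3 than in TMB3400 at 25 mM (-0.42 ± 0.10, 0.0334), a call lost in 12 of the 23 alternatives, the values as deposited among them (adjusted p = 0.0562). FHL1, a chromosome XVI gene whose product regulates ribosomal protein genes, had 10.57 and 10.14 in FT30-3 at 25 mM and 8.32 to 9.21 on the other 11 arrays. It rose at 25 mM in FT30-3 relative to TMB3400 (1.58 ± 0.16, adjusted p = 0.000261 in limma) and relative to 15 mM in FT30-3 (1.17 ± 0.16, 0.00238). At 36 mM FHL1 was lower than at 15 mM in FT30-3 (-0.58 ± 0.15, 0.0171), a call lost in 3 of the 23 alternatives. It was also lower at 36 than at 25 mM (-1.75 ± 0.16, adjusted p = 0.000142 in limma). The interaction of strain and dose was called for FHL1 too (1.33 ± 0.23, 0.0244), a call lost in 8 of the 23 alternatives. The 128 cytosolic ribosomal protein genes, many of which have near-identical copies, had a median of -0.17 between 36 and 15 mM, with 20 called lower (11.2% of all genes) and none higher. With the values as deposited their median was 0.03 and 1 was called lower, so these calls depended on the centring. The centred median was also below 0 in other comparisons. Between 25 and 15 mM in FT30-3 it was -0.20, with none called (2.15% of all genes). Between the strains at 25 mM it was -0.17, with 5 called lower (2.39%), or 2 with the values as deposited.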

How the data were processed

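RNA of 13 cultures was hybridised to 1-colour Affymetrix arrays. The authors deposited linear intensities for every probe set and array. The submitters' processing notes name R 2.7.2, and how probes were summarised and arrays normalized is not stated there or elsewhere in the sources used here. Of 10928 probe sets, 5498 had a single S. cerevisiae gene in the platform's annotation, and symbols, chromosomes and coding lengths were taken through gene identifiers from RefSeq (assembly R64). Of 47 genes with several probe sets the brightest was used. No sequences or coordinates were used.

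Tests were run on log2(intensity + 1), a scale that shrinks the changes of dim genes, and each array's median over S. cerevisiae probe sets was set to a common value (shifts of -0.12 to 0.12). Group means of the 5 strain and dose combinations were estimated from all 13 arrays by lmFit and eBayes (limma 3.58.1, R 4.3.3). For each of 7 comparisons, p-values were adjusted by Benjamini-Hochberg across the 5498 probe sets and called under 0.05. The 61 genes and the lists were chosen with earlier results of these data known. Of the 205 genes on the lists, 201 were found under their symbols. Values are given for the called genes of each comparison, or the 4 with the smallest p, the highest and the lowest change, the 8 with the smallest p between 36 and 15 mM, and up to 3 other genes per list. Of the called genes outside the 61, array values are shown only for MTR4, FHL1 and SSF2. Other scalings, filters, variance models, a replicate block and leaving out each array were tried as alternatives. The number of arrays limits the precision. The procedure was also run on simulated data, with noise drawn independently for each probe set and array. It therefore cannot show how shifts that genes share on an array affect the calls. Figures were drawn with matplotlib 3.10.9.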

Additional observations from a re-analysis of the deposited data

How the results depend on the processing

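The counts of called genes among the 61 were recomputed with the values as deposited, quantile normalization, a pseudocount of 16, a filter on dim probe sets, another variance model, only the groups compared, a replicate block, the mean of a gene's probe sets and each array left out, and, chosen after seeing the data, with centring without chromosome XVI and with the trend with coding length removed. With the values as deposited, 8 genes were called between 36 and 15 mM. With only the groups compared, 1 was called for the strains at 15 mM, and 0 for the strains at 25 mM and for 36 against 25 mM. With the length trend removed, 2 were called for 36 against 25 mM. That setting also added a call of NOP7 for 36 against 15 mM (adjusted p = 0.0335 in limma). Same-numbered arrays of different groups were not paired by the labels, and the correlations of their deviations ran from -0.40 to 0.59, with 13 of 23 above 0.1. With the replicate block, 0 genes were called for the strains at 25 mM (adjusted p = 0.0599 for UTP18 and 0.0658 for RRP3), and the other counts stayed within 1.5 times. With 1 array left out in turn, the counts were 0 to 1 for the strains at 15 mM, 0 to 5 at 25 mM, 0 to 3 for 25 against 15 mM in FT30-3, 2 to 7 for 36 against 15 mM and 0 to 3 for 36 against 25 mM. They stayed at 0 for 25 against 15 mM in TMB3400 and for the interaction. For 65 pairs of a gene and a comparison, which cover every called gene named in the text, the 1495 alternative values kept their direction, while 110 lost and 19 gained a call. Most of these pairs were chosen because they were called, small in p or extreme in change. Leaving out an array of a group not compared does not alter a change. The kept direction therefore says little about the 61 genes as a group. Their median for 25 against 15 mM in FT30-3 ran from -0.30 to 0.03. The causes were not tested. Member SEs of 0.10 to 0.35 between strains limit what groups of 2 and 3 arrays can show.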
